A study of Homo sapiens with 3 samples.

Results

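Telomeres, the repeat ends of chromosomes, are kept by telomerase and by the proteins that bind them. The 10 genes of this machinery described here were chosen by symbol from a table of 57736 gene rows. They are TERT, the catalytic reverse transcriptase of telomerase, DKC1 and NOP10, a pair of proteins that hold the telomerase RNA, the 6 shelterin genes TERF1, TERF2, TERF2IP, TINF2, ACD and POT1, and RTEL1, a helicase that unwinds telomeric loops. All 10 symbols stood in the table once. The genes were picked with the knockdown against WT results of these same libraries in view, so their own changes in that comparison are described here without p-values.

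Total RNA of TOV21G cells was sequenced. TOV21G is a human ovarian clear cell carcinoma line in which ARID1A, a SWI/SNF subunit gene, is mutated. The knockdown cells carried a lentiviral short hairpin RNA against HDAC2, a class I histone deacetylase, with 1 library for hairpin shRNA 1 and 1 for shRNA 2 (HDAC2 knockdown, n = 2), and they were compared with 1 library labelled HDAC2 WT (n = 1). All 3 libraries share the cell line and its ARID1A mutation, and the labels state neither the time after transduction nor any control virus for WT. Effects of knockdown and of transduction cannot be told apart. Spread could be measured between the hairpins only, and the fit gives the single WT library the same spread.

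In most normal somatic cells TERT is silent and telomeres shorten, whereas most cancer cells express TERT. Telomerase copies its RNA template, TERC, onto the chromosome end. Shelterin covers the repeats: TERF1 and TERF2 bind double-stranded repeats, POT1 binds the single-stranded overhang, TINF2 and ACD bridge them, and ACD recruits telomerase.

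The libraries held 11398791 (shRNA 1), 11225492 (shRNA 2) and 10138479 (WT) counts, and 14524 genes had enough counts to be tested. HDAC2, the knockdown target, stood at 33.4 and 51.6 CPM (counts scaled to library size) with shRNA 1 and shRNA 2, against 105 CPM in WT, and fell by 1.31 ± 0.20 (SE) on the log2 scale (edgeR's quasi-likelihood test, adjusted p = 4.82e-04). Of the ovarian clear cell markers, NAPSA was near 0, with 4 and 1 counts in the knockdown libraries against 1 count in WT, while ANXA4 had 8934 and 8704 counts in the knockdown libraries against 7007 counts in WT. The 6 epithelial markers summed to 745.3 and 732.5 CPM in the knockdown libraries against 811.9 CPM in WT. Most of this was KRT18 (431 and 481 CPM, against 475 CPM in WT) and PAX8 (250 and 174 CPM, against 263 CPM in WT). KRT7 had only 19 and 14 counts with the hairpins against 20 counts in WT, and CDH1 12 and 12 against 6. The 4 leukocyte markers summed to at most 1.0 CPM in any library. The fibroblast and mesothelial markers summed to 19.5 and 30.8 CPM with the hairpins against 8.8 CPM in WT, most of it COL1A2, a collagen gene. LUM and CALB2 were at 0 counts in all 3 libraries. The part of these markers in the results below was not tested.

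The hairpins define the knockdown group, so the stems of both are shown, in the order in which the labels list them. Which of them is shRNA 1 is not stated. Each stem matched HDAC2, on chromosome 6, without a mismatch, and the closest match in any annotated transcript of the 10 genes or TERC, on the sense strand, had 6 mismatches for the first stem and 7 for the second, over 21 bases.
first stem: cagtctcaccaatttcagaaa
second stem: gcaaatactatgctgtcaatt

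TERT changed by far the most of the 10 genes. It had 2 counts with shRNA 1 and 3 with shRNA 2, against 25 counts in WT. In CPM this was 0.174 with shRNA 1 (exact 95% Poisson interval 0.0211 to 0.63), 0.265 with shRNA 2 (0.0547 to 0.775) and 2.51 in WT (1.62 to 3.7), intervals that cover counting error only. In bulk RNA, fewer cells that express a gene and less RNA per cell cannot be told apart. Both knockdown libraries lay below WT. The pooled knockdown level was 0.0876 of the WT level, with an exact conditional binomial 95% interval of 0.0262 to 0.233, which is 11.4-fold lower with an interval of 4.29 to 38.2. These intervals describe counting error in libraries whose difference was known when TERT was chosen, and they are no test of the knockdown. The fitted log2 change was −3.45 ± 0.80 (SE), a value that rests on 30 counts in all and on the prior count of the fit. TERT (ENSG00000164362) lies on chromosome 5 from 1253147 to 1295069 on the minus strand (GRCh38, GENCODE 29), and shared none of its 75-base sequences with another annotated gene.

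Among the 10 genes, TERT alone passed an adjusted p below 0.05 over all genes by edgeR's quasi-likelihood test, which is 10% of them, against 7.72% of the 14524 genes tested (3.96% higher and 3.76% lower in knockdown cells). Since the genes were picked with this contrast known, nothing is read from that share. TERT passed the filter on low counts through the WT library only, so a gene admitted this way had to be lower in the knockdown. The other 9 passed the filter level in all 3 libraries. TERT no longer passed once a trend with transcript GC content was removed, where its log2 change was −3.14, nor with no filter on low counts. DESeq2's independent filtering gave TERT no adjusted p, and a filter at a mean count of at least 50 left it out.

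**Figure D1:**
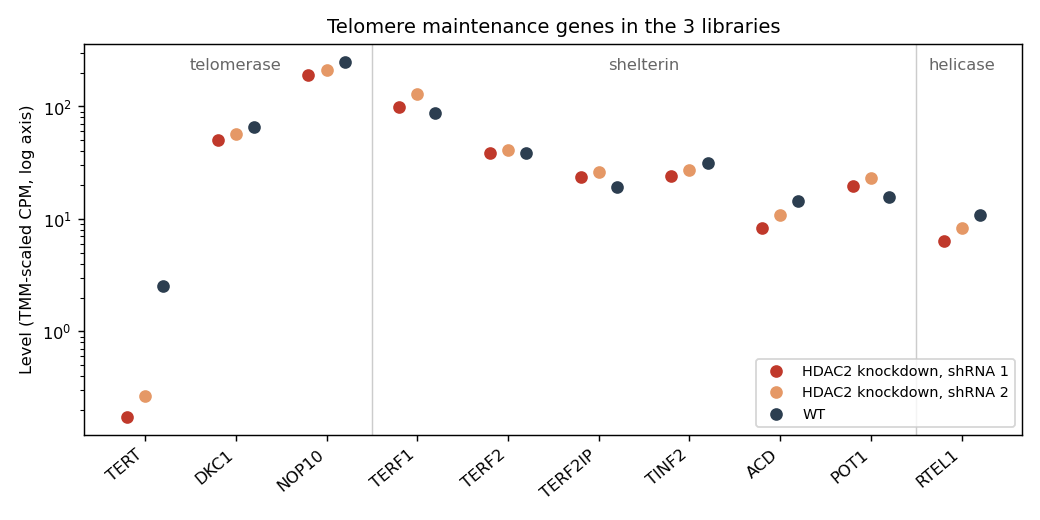
Levels of the 10 telomere genes in each of the 3 libraries, as TMM-scaled CPM on a log axis, with 1 point per library and genes grouped by role. TERT sits at 0.174 and 0.265 CPM with the hairpins and at 2.51 CPM in WT, while every other gene stays within the range of 57.8% to 148% of its WT level.

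The protein partners of TERT in the telomerase particle were much more abundant and differed far less. DKC1, the pseudouridine synthase dyskerin, which binds and stabilises TERC, had 50.3 and 56.6 CPM with shRNA 1 and shRNA 2, against 65.6 CPM in WT. Its log2 change was −0.30 ± 0.17 (SE). NOP10, a small protein of the same H/ACA particle, had 191 and 212 CPM with the hairpins, against 250 CPM in WT, a log2 change of −0.31 ± 0.17 (SE). Both genes lay below WT in both knockdown libraries, at 76.3% to 86.3% of it, and neither passed the test. Their values stayed at −0.30 and −0.32 with the GC trend removed.

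TERC, the RNA that carries the template, is shown here because telomerase cannot act without it and because its reads were almost absent. Bases 37 to 65 of its 541-base annotated transcript (chromosome 3) follow, with the template copied into telomere repeats, bases 46 to 56, in capitals and T written for U.
TERC template: attttttgtCTAACCCTAACtgagaaggg
TERC had 2 and 1 counts with shRNA 1 and shRNA 2 and 2 counts in WT, at or below the 3 counts that a count of 0 allows in a library, so it was not tested and no fold is given. The annotation also holds another row with 77.9% of TERC's 75-base sequences, so its few reads are uncertain.

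The 250 bases before the RefSeq starts of the telomerase genes TERT, DKC1 and NOP10 are shown to set the gene that differed most beside its protein partners (GRCh38.p14, each on its own strand). Capitals mark the E-box CACGTG, a sequence that MYC and MAX can bind and that reads the same on both strands.
TERT, chr5:1295069-1295318, minus strand: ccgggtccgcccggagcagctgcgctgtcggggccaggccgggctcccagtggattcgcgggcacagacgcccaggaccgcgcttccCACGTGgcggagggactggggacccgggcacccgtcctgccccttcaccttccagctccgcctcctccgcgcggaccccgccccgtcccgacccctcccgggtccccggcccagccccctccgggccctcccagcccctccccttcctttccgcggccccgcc
DKC1, chrX:154762614-154762863, plus strand: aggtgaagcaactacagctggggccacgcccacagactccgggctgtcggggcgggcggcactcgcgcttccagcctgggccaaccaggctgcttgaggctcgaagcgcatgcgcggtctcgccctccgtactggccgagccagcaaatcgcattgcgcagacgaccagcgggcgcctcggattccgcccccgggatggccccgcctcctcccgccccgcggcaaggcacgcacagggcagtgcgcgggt
NOP10, chr15:34343137-34343386, minus strand: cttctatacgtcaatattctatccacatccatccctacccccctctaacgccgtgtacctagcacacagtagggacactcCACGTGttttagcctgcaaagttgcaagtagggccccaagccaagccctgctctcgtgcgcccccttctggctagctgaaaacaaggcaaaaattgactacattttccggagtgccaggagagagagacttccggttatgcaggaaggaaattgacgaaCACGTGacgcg

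The TERT window held 1 E-box, which began 163 bases before the start. The NOP10 window held 2 E-boxes, beginning 170 and 11 bases before its RefSeq start, and the DKC1 window held 0. GENCODE 29 starts NOP10 at 34343177 and DKC1 at 154762742, both inside these windows. By that annotation the nearer NOP10 E-box lies within the gene. The share of windows with an E-box was 6.34% of the 35116 promoter windows in the RefSeq table. The GC box GGGCGG, searched on both strands, matched 2 times in the TERT window, 4 times in the DKC1 window and 0 times in the NOP10 window, against 42.6% of all windows with at least 1 match, and no GC box overlapped an E-box. The ETS sequence CCGGAAG, the CCAAT box and the CRE sequence TGACGTCA were also searched, and had 0 matches in the TERT and DKC1 windows. The NOP10 window held 1 ETS match and 0 of the CCAAT box and CRE. Of all windows, 8.52%, 32.0% and 1.65% held an ETS, CCAAT box or CRE match. GC content was 78.8% in the TERT window, 72% in that of DKC1 and 52% in that of NOP10. The table had windows for 8 of the 10 genes, and outside TERT and NOP10 none of their windows held an E-box. A match describes the letters only.

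The 6 shelterin genes did not move one way, and none passed the test. TERF1, which binds double-stranded repeats and limits their elongation, had 99.3 and 129 CPM with shRNA 1 and shRNA 2, against 87.7 CPM in WT, a log2 change of 0.38 ± 0.19 (SE). POT1, the single-strand binding subunit, had 19.6 and 23.1 CPM with the hairpins, against 15.6 CPM in WT, a log2 change of 0.46 ± 0.22 (SE). TERF2IP, the Rap1 partner of TERF2, had 23.4 and 26.0 CPM with the hairpins, against 19.3 CPM in WT, a log2 change of 0.36 ± 0.21 (SE). These genes lay above WT in both knockdown libraries, at 113% to 148% of it.

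TERF2, which binds the repeats and blocks end fusion, had 38.3 and 40.9 CPM with the hairpins and 38.7 CPM in WT, so the knockdown libraries stood on both sides of WT. Its log2 change was 0.03 ± 0.18 (SE). The bridging genes lay below WT in both knockdown libraries. TINF2, which joins TERF1 to TERF2, had 24.2 and 27.1 CPM with the hairpins, against 31.4 CPM in WT, a log2 change of −0.29 ± 0.20 (SE). ACD, also called TPP1, had 8.29 and 10.9 CPM with the hairpins, against 14.3 CPM in WT, a log2 change of −0.58 ± 0.25 (SE). ACD binds POT1 directly, and the levels of this pair differed from WT in opposite directions.

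RTEL1 cannot be read alone, because 63.0% of its 75-base sequences also belong to the read-through gene RTEL1-TNFRSF6B. RTEL1 had 6.37 and 8.31 CPM with shRNA 1 and shRNA 2, against 10.9 CPM in WT, a log2 change of −0.57 ± 0.27 (SE). The read-through row had 39 and 38 counts with the hairpins, against 71 counts in WT, and differed by −1.07 ± 0.35 (SE) on the log2 scale (edgeR's quasi-likelihood test, adjusted p = 0.0634). All values of both rows were below WT. Summed before the fit, the rows gave 112 and 132 counts with the hairpins, against 180 counts in WT, and a log2 change of −0.75.

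Of the 10 genes, 6 lay below WT in both knockdown libraries and 3 above it, and TERF2 did neither. Over all genes tested, 39.3% lay below WT in both and 39.9% above it. The median log2 change was −0.30 over the 10 genes, against 0.01 over all genes tested. All 10 had higher values with shRNA 2 than with shRNA 1, by 0.09 (TERF2) to 0.38 (ACD) on the log2 scale, where 50.2% of all genes tested did. For TERT this is 3 counts against 2 counts, which gives no order. HDAC2 itself was higher with shRNA 2 than with shRNA 1, by 0.62. With 1 library per hairpin this difference has no replicate and no test.

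Differences from WT varied with GC content, among the 10 genes as among all genes tested. TERT, ACD and RTEL1 had transcripts of 65.7%, 62.6% and 62.5% GC and were all lower in the knockdown, and POT1 and TERF1, with 37.6% and 38.1% GC, were both higher. Over all genes tested, the log2 change was below 0 for 79.4% of the 1976 genes with at least 60% GC, and for 16.9% of the 2161 genes under 40% GC, with medians of −0.29 and 0.35. With a GC trend removed, TERF1 differed by 0.06, POT1 by 0.13, ACD by −0.29, RTEL1 by −0.29 and TINF2 by −0.15 on the log2 scale. TERF2IP (0.40) and the pair DKC1 and NOP10, which have 48.0% to 50.1% GC, kept values close to those without the correction.

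**Figure D2:**
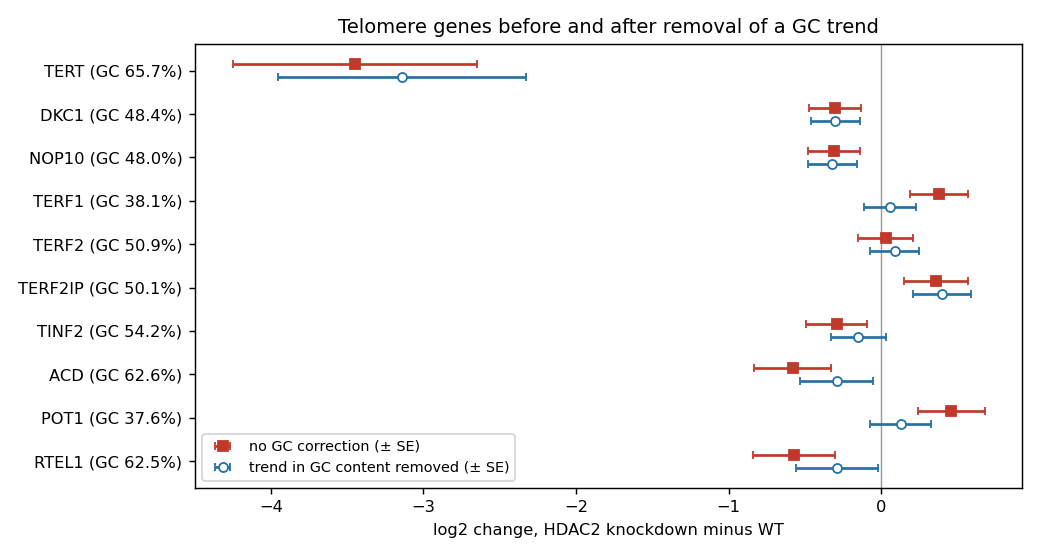
Log2 change of each gene, HDAC2 knockdown minus WT, with its SE, without a GC correction (squares) and with a GC trend removed (circles), beside the GC content of its longest coding transcript. TERT lies at −3.45 without the correction and at −3.14 with it, where it no longer passed the test, while TERF1 and POT1 lie at 0.38 and 0.46 without the correction and at 0.06 and 0.13 with it.

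Levels were compared between genes per kilobase of the longest coding transcript. In WT the order ran from NOP10 (451 CPM per kb) through TERF1 (26.8), DKC1 (21.3), TINF2 (14.5), TERF2 (13.0), TERF2IP (9.09), ACD (6.95), POT1 (3.81) and RTEL1 (2.21) to TERT (0.624 CPM per kb). In the knockdown the top 3 and bottom 2 places were the same, at 344 and 383 CPM per kb for NOP10 and 0.0434 and 0.066 CPM per kb for TERT. TINF2 (11.1 and 12.5 CPM per kb) and TERF2IP (11 and 12.3 CPM per kb) could not be ordered beyond the spread between hairpins. POT1 (4.81 and 5.66 CPM per kb) and ACD (4.01 and 5.27 CPM per kb) also overlapped between hairpins. In WT the ACD level was the higher of this pair, but WT is 1 library without a measured spread. No change of order is read from this.

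The genes whose pattern lay nearest to that of TERT, by distance over the log2 changes of the 2 hairpins among 638 protein-coding genes of like level, were PIGY (0.602), RDH5 (0.734) and HCN2 (0.971). PIGY had 0 and 1 counts with shRNA 1 and shRNA 2, against 18 counts in WT, and shares all its 75-base sequences with PYURF. RDH5, a retinol dehydrogenase, had 0 and 3 counts with the hairpins, against 15 counts in WT, and shares 54.5% of its sequences with a read-through. HCN2, a pacemaker channel gene, had 3 and 3 counts with the hairpins, against 17 counts in WT. Likeness over 3 libraries at such counts is a description.

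Of 8 listed neighbours of TERT on chromosome 5, 5 had enough counts to be tested, and their log2 changes lay between −0.83 and 0.37. CLPTM1L, whose start lies 50 kb from that of TERT, had 110 and 91.6 CPM with the hairpins, against 122 CPM in WT. It differed by −0.28 ± 0.18 (SE) on the log2 scale (edgeR's quasi-likelihood test, adjusted p = 0.358). SLC6A18, an amino acid transporter gene at −69.7 kb, had 0 counts in all 3 libraries, which allows up to 0.262, 0.265 and 0.301 CPM in shRNA 1, shRNA 2 and WT. TRIP13, a mitotic checkpoint ATPase at −402.4 kb, fell to 0.564 of WT (log2 −0.83 ± 0.17, SE; adjusted p = 0.00458 by the same test). The difference between TERT and its neighbours was not tested.

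**Figure D3:**
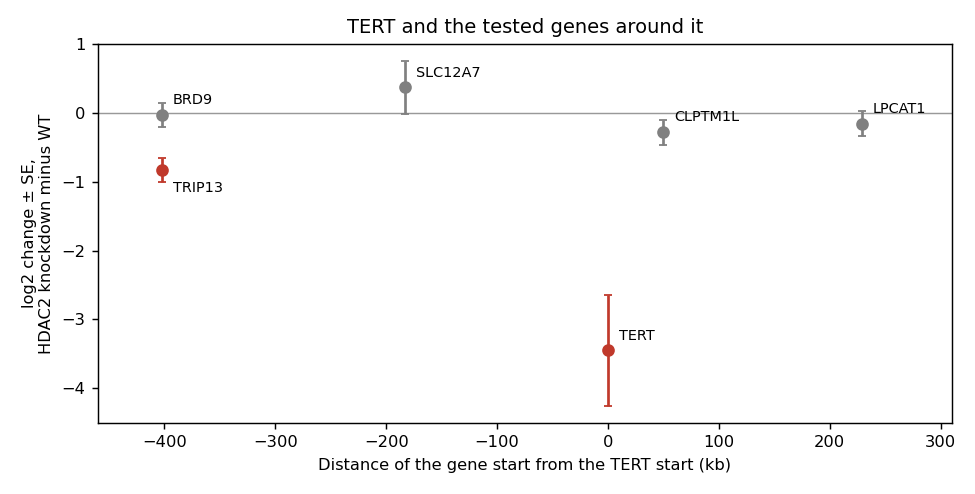
Log2 change with its SE, HDAC2 knockdown minus WT, of TERT and the 5 tested neighbours against the distance of each gene's start from that of TERT in kilobases. TERT lies at −3.45, TRIP13 at −0.83, and BRD9, SLC12A7, CLPTM1L and LPCAT1 between −0.28 and 0.37; red marks genes that passed.

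Across the neighbours of all 10 genes, 20 of 27 were tested, with 1 rising, 1 falling and 18 that did not pass (10.0% called, near the 7.72% of all genes). The riser was SBSPON, beside TERF1, at 1.66-fold (log2 0.73 ± 0.18, SE; adjusted p = 0.0166 by edgeR's quasi-likelihood test), but did not pass after GC correction (0.55).

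Genes that build and steer telomerase changed about as often as genes in general. Of 25 listed, 24 were tested, 0 rose and 2 fell (8.33%, against 7.72% of all genes), with a median log2 change of −0.04. Of the 24, 7 had an unadjusted p below 0.05 by edgeR's quasi-likelihood test, as did 3420 of all 14524 genes tested. WRAP53, also called TCAB1, which carries telomerase to Cajal bodies, had 20.3 and 24.1 CPM with the hairpins, against 45.0 CPM in WT, and fell to 0.493 of WT (log2 −1.02 ± 0.19, SE; adjusted p = 0.00276 by edgeR's quasi-likelihood test). RUVBL2, an ATPase of telomerase assembly, fell to 0.635 of WT (log2 −0.66 ± 0.17, SE; adjusted p = 0.0233 by the same test), but did not pass after GC correction (−0.40). NHP2 and GAR1, the other proteins of the H/ACA particle, differed by −0.35 ± 0.18 and 0.17 ± 0.24 (SE) and did not pass.

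Genes for copying and processing telomere ends fell more often. Of 26 tested, 7 fell, 0 rose and 19 did not pass (26.9% called, against 3.76% of all genes called as lower). Their median log2 change was −0.48 against 0.01 over all genes. In both hairpin libraries 21 of the 26 lay below WT, against 39.3% of all genes tested. This list holds largely genes of DNA replication, so it adds no independent evidence on telomeres. RECQL4, a helicase that acts at telomeres and origins, had 7.24 and 7.87 CPM with the hairpins, against 17.9 CPM in WT, and fell to 0.423 of WT (log2 −1.24 ± 0.23, SE; adjusted p = 0.00283 by edgeR's quasi-likelihood test). POLD1, the catalytic subunit of DNA polymerase delta, fell to 0.437 of WT (log2 −1.20 ± 0.20, SE), and FEN1, a flap nuclease, to 0.523 of WT (log2 −0.94 ± 0.19, SE).

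The other 4 falling genes, named after their values were seen, were POLA2, with 33.5% of its sequences in another gene, EXO1, TIMELESS and RMI1, at 0.541, 0.596, 0.604 and 0.564 of WT. CTC1, STN1 and TEN1, the CST complex that brings polymerase alpha to telomere ends, differed by −0.40 ± 0.22, −0.06 ± 0.20 and −0.15 ± 0.28 (SE) and did not pass. TEN1 cannot be read alone, because 63.1% of its 75-base sequences also belong to TEN1-CDK3. With the GC trend removed 7 genes of the list passed as well. Beside this, 12 of 15 proliferation genes fell (80.0%, against 3.76% of all genes called as lower), 0 rose, and their summed level was 1607.3 and 1985.1 CPM with shRNA 1 and shRNA 2, against 3330.7 CPM in WT. E2F2, MCM5 and MCM2 fell to 0.350, 0.416 and 0.465 of WT. The part of this difference in the levels of TERT and the telomere genes was not tested.

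**Figure D4:**
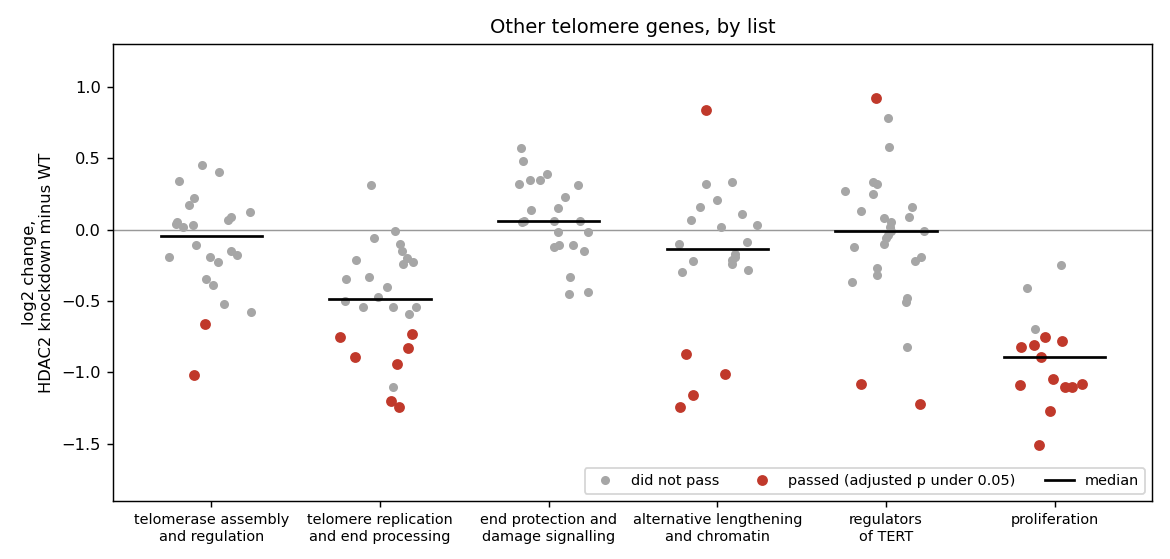
Log2 change, HDAC2 knockdown minus WT, of every tested gene in 6 lists, with a bar at each list's median and red for genes with an adjusted p below 0.05. The medians lie at −0.48 for telomere replication and −0.89 for proliferation, and between −0.14 and 0.06 for the other 4 lists.

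Of 23 genes for end protection and damage signalling, 0 passed by edgeR's quasi-likelihood test, against 7.72% of all genes. Their median log2 change was 0.06. By the same test 4 had an unadjusted p below 0.05, as did 3420 of all 14524 genes tested. DESeq2's Wald test called 0 of them, with 4 given no adjusted p, against 306 of the 14524 genes. It gave no adjusted p to 6758 of those 14524. TNKS2, a tankyrase that releases TERF1 from telomeres, had 140 and 124 CPM with the hairpins, against 88.7 CPM in WT, and differed by 0.57 ± 0.18 (SE) on the log2 scale (edgeR's quasi-likelihood test, adjusted p = 0.0526). Its relative TNKS differed by 0.31 ± 0.17 (SE).

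Of 22 genes of telomeric chromatin and of the recombination route called alternative lengthening, 1 rose and 4 fell (22.7% called, against 7.72% of all genes), with a median log2 change of −0.14. ATRX, a chromatin remodeller whose loss marks alternative lengthening in many tumours, had 85.2 and 85.3 CPM with the hairpins, against 47.6 CPM in WT, and rose 1.79-fold (log2 0.84 ± 0.18, SE; adjusted p = 0.00581 by edgeR's quasi-likelihood test). Its transcript has 36.8% GC, and it did not pass after GC correction (0.49). ATRX loads the histone variant H3.3 together with DAXX, which differed by −0.28 ± 0.17 (SE) and did not pass. H3-3A, an H3.3 gene with 11% of its sequences in a pseudogene and named after its values were seen, fell to 0.547 of WT (log2 −0.87 ± 0.17, SE).

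ASF1B, a histone chaperone of replicating cells, fell to 0.423 of WT (log2 −1.24 ± 0.17, SE; adjusted p = 2.25e-04 by edgeR's quasi-likelihood test), while its relative ASF1A differed by 0.11 ± 0.18 (SE). ORC1, an origin-binding ATPase, fell to 0.446 of WT (log2 −1.16 ± 0.18, SE). SUV39H1, a methyltransferase of histone H3 in heterochromatin, fell to 0.496 of WT (log2 −1.01 ± 0.27, SE), but did not pass after GC correction (−0.79).

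Of 30 listed regulators of TERT transcription, 29 were tested, 1 rose and 2 fell (10.3% called, near the 7.72% of all genes), with a median log2 change of −0.01. MXD1, which competes with MYC for MAX and represses E-box genes, TERT among them, had 57.4 and 49.8 CPM with the hairpins, against 28.4 CPM in WT, and rose 1.89-fold (log2 0.92 ± 0.19, SE; adjusted p = 0.00558 by edgeR's quasi-likelihood test). MYC, an activator of TERT, had 205 and 184 CPM with the hairpins, against 164 CPM in WT, and did not pass (log2 0.25 ± 0.17, SE). MXD3, another partner of MAX, fell to 0.428 of WT (log2 −1.22 ± 0.35, SE) but did not pass after GC correction (−1.04), and 15.6% of its 75-base sequences occur in other genes. E2F1, which drives genes of DNA synthesis, fell to 0.473 of WT (log2 −1.08 ± 0.21, SE; adjusted p = 0.00334 by the same test). MXD1 and MXD3, both partners of MAX, thus differed from WT in opposite directions. The part of these regulators in the TERT level was not tested.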

How the data were processed

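Per the labels' protocols, RNA was extracted with Trizol, cleaned and DNase-treated on columns, and sequenced as 75-base reads after ScriptSeq library preparation. The authors deposited 1 table of whole-number estimated counts for Ensembl genes. The tools RSEM 1.2.3 and edgeR and the build hg19 are named per the submitters' processing notes, with roles not given in the sources used here, nor whether counting used strand. RSEM divides reads that match several genes by a model. Of 57736 rows, 34038 had no count.

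The quasi-likelihood test of edgeR was fitted to all 14524 genes that passed filterByExpr, with Benjamini-Hochberg adjustment over them (edgeR 4.0.16, R 4.3.3, TMM scaling, threshold 0.05), on 1 residual degree of freedom and a prior of 18.9. SEs are the estimate divided by the root of its F statistic. CPM are TMM-scaled. In a simulation on 14524 genes the test recovered 5.97% of simulated 1.5-fold changes, 49.3% at 2-fold and 90.9% at 4-fold. It changed 67, 67 and 66 genes at these folds, with the same dispersion for every gene and no GC trend. The real libraries differ in these settings, so the rates need not hold for them. For single hairpins, log2 CPM with a prior count of 2 were compared without a test.

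GENCODE 29 (GRCh38) gave names, positions, transcript length and GC content (97.2% of genes tested), and promoters came from RefSeq (GRCh38.p14). Shared 75-base sequences were counted between annotated genes on the same strand unless stated otherwise. The GC trend was a lowess fit per library. Other alternatives were DESeq2 1.42.0, the likelihood ratio test, other scalings and filters.

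The 10 genes and all lists were chosen with earlier results of these data known. The rule for naming genes besides the 10 took HDAC2, TERC, CLPTM1L, SLC6A18, RTEL1-TNFRSF6B, up to 3 rising and 3 falling genes per list by size of change, and the 3 genes most like TERT. Outside it, and named after their values were seen, are NHP2, GAR1, CTC1, STN1, TEN1, POLA2, EXO1, TIMELESS, RMI1, TNKS, TNKS2, DAXX, H3-3A, ASF1A and MYC, and the marker genes, the other neighbours of TERT and the genes that overlap the 10. Nothing says that the hairpin libraries come from more than 1 culture each, so p-values measure the spread between these libraries only. With 1 residual degree of freedom and a prior of 18.9, that spread is mostly shared across genes, and little of it is the gene's own.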

Additional observations from a re-analysis of the deposited data

How the results depend on the processing

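Of all genes, 1121 passed (575 higher, 546 lower), and 547 with the GC trend removed (197 higher, 350 lower), 306 by DESeq2's Wald test (DESeq2 1.42.0), and 0 with no filter on low counts, where 2486 had an unadjusted p below 0.05 by edgeR. DESeq2 gave no adjusted p to 6758 of the 14524 genes. Of the 10 telomere genes, 1 passed, against 2 with RTEL1 and its read-through summed. The count was 0 with no filter, with a mean count of at least 50, with the GC trend removed and by DESeq2, each with 1 gene at an unadjusted p below 0.05, and DESeq2 gave no adjusted p to 3 of the 10. With no filter, 0 passed in each of the 7 lists by edgeR, with 3 to 11 genes a list at an unadjusted p below 0.05. DESeq2 left 1 telomerase assembly gene, 2 replication genes and 1 regulator of TERT, and gave no adjusted p to 4, 9 and 6 genes of these lists. By DESeq2, 4 chromatin genes, 2 neighbours and 11 proliferation genes passed. With the GC trend removed, 1 assembly gene, 7 replication genes, 3 chromatin genes, 2 regulators of TERT, 1 neighbour and 14 proliferation genes passed. End protection had 1 gene that passed with library size alone and 1 by the likelihood ratio test. With a prior count of 0.5 in place of 2, TERT's log2 change was −3.54 with shRNA 1 and −3.04 with shRNA 2, against −2.91 and −2.58. No direction reversed for the 10 genes when a scaling, filter or test was changed. Without either hairpin no residual degree of freedom is left, so those values have no test, and TERT's log2 change then was −3.76 to −3.19. No paired analysis was possible because WT has 1 library, so the groups share fewer than 2 replicate numbers. At 2 and 3 counts, depth limits the TERT value.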

Other observations

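Annotated genes that overlap the 10 telomere genes had few counts with a few exceptions. POT1-AS1, antisense to POT1, had 6 and 6 counts with shRNA 1 and shRNA 2, against 0 counts in WT. AC026464.3, which overlaps TERF2 on the same strand, had 38 and 5 counts with the hairpins, against 4 counts in WT. KARS, the lysyl-tRNA synthetase gene on the strand opposite TERF2IP, had 3605 and 3325 counts with the hairpins, against 3243 counts in WT, and 3.0% of the TERF2IP 75-base sequences occur in it on the opposite strand.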
